A study of Mus musculus with 6 samples.

Results

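The genes described here are 36 members of the pathways that carry glucose to lactate, into the mitochondrion and through the pentose phosphate route. They were chosen by symbol, and all 36 were among the 23282 rows of the count table. They were grouped by step into 4 transport genes, 11 genes of upper glycolysis, 8 of lower glycolysis including lactate dehydrogenase, 6 of pyruvate entry and 7 of the pentose phosphate pathway. RNA-seq had been made from the mouse line TC-1, labelled a lung adenocarcinoma line and known as a lung-derived line that carries papillomavirus oncogenes and an activated ras. The untreated group held 3 libraries of cells grown in RPMI with serum, and the IFN-gamma group held 3 libraries of cells kept for 72 h with 20 ng/ml murine recombinant interferon-gamma (IFN-gamma), a cytokine of activated T and NK cells. No genetic change set the groups apart. It is 1 line, and whether the replicates were grown separately is not in the labels, so each p-value reflects the spread of these samples alone, possibly technical.

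In glycolysis, glucose enters through facilitative transporters, is trapped by hexokinase, is split into 3-carbon sugars in the upper steps, and is oxidised to pyruvate in the lower steps, which yield ATP. Pyruvate is then either reduced to lactate and exported, or oxidised by the pyruvate dehydrogenase complex, which the PDK kinases switch off. The pentose phosphate pathway branches off after hexokinase: its oxidative arm makes NADPH, and its non-oxidative arm interconverts pentoses with glycolytic sugars. Tumour cells commonly run glycolysis at a high rate even with oxygen present.

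Total counts lay between 7302687 and 10861336 per library, and 12191 genes had enough counts to be tested. As a check of the treatment label, the known IFN-gamma targets Irf1 and Gbp2 were both called higher, by log2 fold changes of 3.62 ± 0.07 and 6.79 ± 0.07. Of markers of the labelled cell type, 2 of 8 epithelial and 2 of 8 lung epithelial genes passed the filter on low counts. The epithelial markers summed to between 17.8 and 18.9 CPM in untreated and between 10.3 and 10.7 CPM in IFN-gamma libraries, with Epcam and Krt18 at or near 0. Krt19 made the most of these sums, with 14.1 ± 2.06 CPM untreated and 8.05 ± 1.52 CPM after IFN-gamma. It was called lower by a log2 fold change of -0.81 ± 0.20 (adjusted p = 0.003 in edgeR's test), and also by DESeq2 and limma. Krt8, the other epithelial marker tested, was not called. The lung epithelial markers summed to between 4.71 and 6.88 CPM over all libraries, with Sftpa1 and Sftpb at 0. All 8 mesenchymal markers were tested, and they summed to between 10232 and 10519 CPM in untreated and between 7441 and 7801 CPM in IFN-gamma libraries, with 6 called lower in edgeR's test (7 by DESeq2 and limma) and 0 higher by any of these tools or without adjustment. Summed myeloid markers stood at 6.11 to 7.95 CPM untreated and 8.57 to 14.1 CPM after IFN-gamma, of which Cd68 made the most. Cd68 was the myeloid marker that was tested, and it was called higher by edgeR and limma but not by DESeq2. Ptprc, Adgre1, Itgam, Csf1r, Lyz2, Tyrobp and Fcer1g were at or near 0. Lymphoid and endothelial markers summed to at most 0.652 and 2.30 CPM, and none of their genes passed the filter. Whether any of these shifts had a part in the changes below was not tested.

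In cells treated with IFN-gamma most tested genes of upper and lower glycolysis were lower, while Hk2 and 3 pentose phosphate genes were higher. The fitted fold changes, as percent, ran among the genes called lower from -10.6% (Pgam1) to -33.0% (Tkt), and among those called higher from 19.6% (Hk2) to 36.6% (Rpe). Of the 36 members 33 were tested, and 16 were called lower and 4 higher at an adjusted p under 0.05 in edgeR's quasi-likelihood test, adjusted over all 12191 genes. The lower share, 48.5% of tested members, stands beside 7.56% of all tested genes, and the higher share, 12.1%, beside 9.88%. The members were chosen with earlier results of these data known, so these shares describe the list and are not an independent test. Abundant genes are called more easily, and of tested genes with a mean of at least 100 CPM 14.7% were lower and 20.1% higher, against 13 and 2 of the 19 members at that level. The median log2 fold change was -0.20 over the tested members and -0.01 over all tested genes. CPM are counts scaled to 1e6 per library after TMM normalization, fold changes are IFN-gamma over untreated ± standard error, and means are given ± SD with n = 3 libraries per group. In a bulk sample fewer cells that express a gene and less of its RNA per cell cannot be told apart.

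Untreated and IFN-gamma values were fully separate for 23 of the 33 tested members (69.7%, against 31.8% of all tested genes), and in 19 of the 20 called. Over all tested genes they were separate in 2033 of the 2126 called, so the count among called members does not set the list apart. Summed over the 36 members, the level was 9144, 9188 and 9588 CPM in untreated replicates 1, 2 and 3 and 8213, 7989 and 8101 CPM in the IFN-gamma replicates, with means of 9307 ± 244 and 8101 ± 112 CPM. The mean sum differed by -13.7% in upper glycolysis, -14.6% in lower glycolysis, -11.2% in transport and -8.21% in pyruvate entry, and genes with the most counts weigh most in these sums. The groups of the pyruvate entry sum overlapped, with 378.6 CPM in untreated replicate 2 and 379.3 CPM in IFN-gamma replicate 2. In that step Pdk1 alone went from 155 ± 8.02 to 115 ± 3.11 CPM. The means of Pdk3, Pdha1 and Pdhb were slightly higher, with none of these called. The summed pentose phosphate level went from 634 ± 5.83 to 617 ± 17.4 CPM, with members moving in both directions. Its groups were only just separate, with 629.3 CPM in untreated replicate 3 and 628.9 CPM in IFN-gamma replicate 3. With other scaling factors the calls over all genes shifted towards decreases, from 56.6% higher calls with TMM to 41.6% with upper-quartile factors, 44.5% with total counts and 39.5% with total counts without the ribosomal RNA row. Under these factors 18, 17 and 18 members were lower, and 4 were higher under each.

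**Figure D1:**
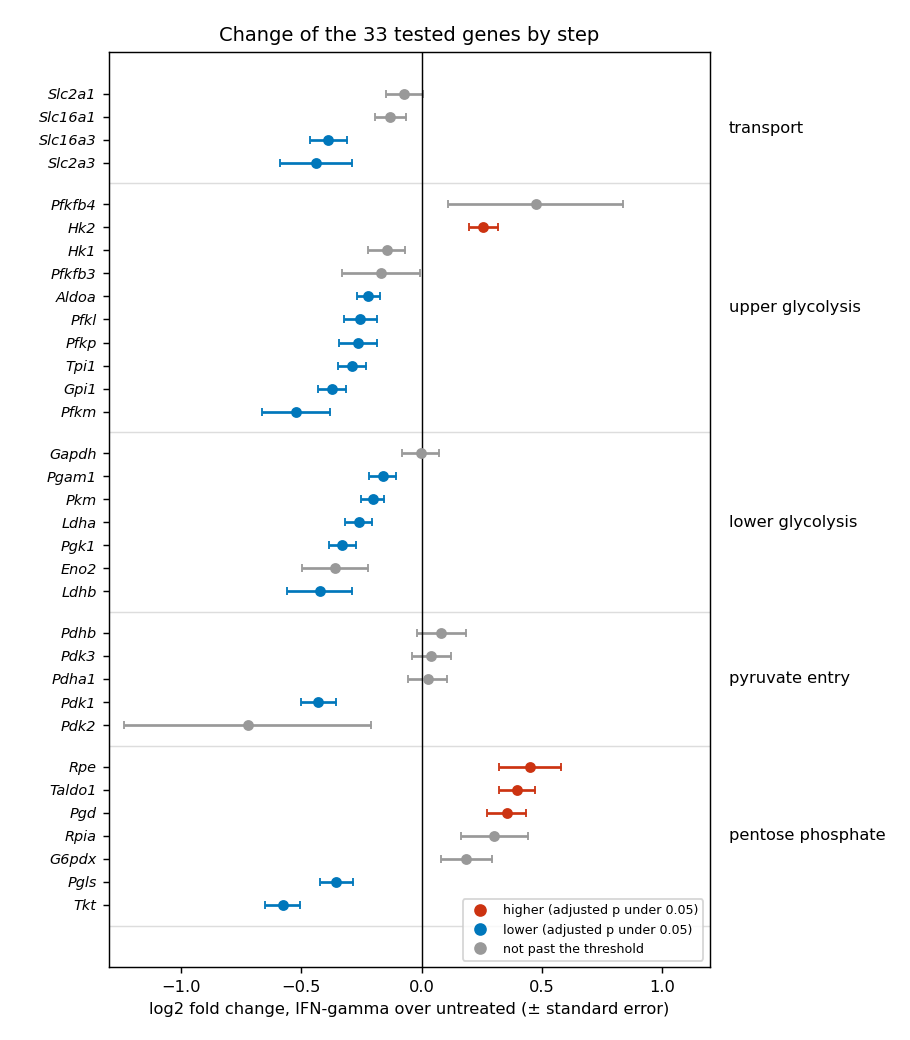
Log2 fold change (x axis, IFN-gamma over untreated) of the 33 tested members by step (y axis), with standard errors as bars; blue and red mark genes called lower and higher, grey marks genes not past the threshold. The 16 blue genes lie between -0.58 (Tkt) and -0.16 (Pgam1), and 3 of the 4 red genes are pentose phosphate genes.

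Promoters of the members are shown because 16 of the tested genes were lower after IFN-gamma. Those of Ldha, Pgk1 and Pdk1, which were lower, and Hk2, which was higher, were picked as examples after their values were seen. The 250 bases before 1 start site of each are printed 5′ to 3′ from RefSeq (GRCm38.p6). Ldha and Pdk1 have 2 start sites each in that table, and the window with more matches is printed: the other window holds 1 match against 5 for Ldha and 0 against 1 for Pdk1. Capitals mark ACGTG or GCGTG, the core that the hypoxia-inducible factor HIF binds, on either strand (CACGT or CACGC where it lies on the other strand). Each of the 2 CACGTG in the printed Ldha window counts as 2 of its 5 matches, 1 on each strand, so fewer than 5 stretches are marked there.
Ldha, chr7:46845554-46845803, plus strand: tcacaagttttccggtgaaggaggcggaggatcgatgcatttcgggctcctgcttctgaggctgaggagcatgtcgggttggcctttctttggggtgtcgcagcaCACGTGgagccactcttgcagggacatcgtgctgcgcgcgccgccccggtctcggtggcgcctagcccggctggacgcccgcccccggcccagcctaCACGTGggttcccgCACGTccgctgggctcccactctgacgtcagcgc
Pgk1, chrX:106186850-106187099, plus strand: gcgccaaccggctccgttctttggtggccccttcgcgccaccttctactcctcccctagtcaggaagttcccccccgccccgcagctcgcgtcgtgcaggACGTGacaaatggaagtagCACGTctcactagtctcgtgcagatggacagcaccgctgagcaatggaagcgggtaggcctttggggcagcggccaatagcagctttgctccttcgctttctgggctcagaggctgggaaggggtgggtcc
Pdk1, chr2:71872974-71873223, plus strand: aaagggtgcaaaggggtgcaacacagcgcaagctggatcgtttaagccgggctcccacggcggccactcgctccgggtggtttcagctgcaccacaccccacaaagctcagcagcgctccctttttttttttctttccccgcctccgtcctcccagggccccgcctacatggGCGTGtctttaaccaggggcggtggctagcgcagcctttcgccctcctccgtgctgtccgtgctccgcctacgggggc
Hk2, chr6:82774455-82774704, minus strand: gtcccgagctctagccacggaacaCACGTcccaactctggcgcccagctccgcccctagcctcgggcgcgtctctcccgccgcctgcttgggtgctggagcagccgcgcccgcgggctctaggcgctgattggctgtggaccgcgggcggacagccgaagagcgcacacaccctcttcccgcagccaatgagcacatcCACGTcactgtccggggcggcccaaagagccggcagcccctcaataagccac
Of the 36 members 35 had promoters in the RefSeq table, with 50 start sites, and 31 of these genes held ACGTG or GCGTG in at least 1 window. Per window the share was 78%, against 38.6% of all 32851 windows of the same length, with base composition not matched. No share per gene was computed over all genes, so the counts of genes have no such value beside them. Some members have several windows, which raises a count of genes with at least 1 match, and windows of the same gene can overlap. The core was present in 13 of 15 genes called lower, in 3 of 4 called higher and in 12 of 13 tested and not called. The E-box CACGTG, which contains ACGTG on both strands, was in 10% of member windows and 6.02% of all windows. A repeat of GAAA with a gap of 2 bases, the interferon-response type, was in a window of Rpe alone among the members (2% of member windows, 2.98% of all). A match is a string of letters, not a shown binding site.

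Among transport genes, 2 of 4 were called lower in edgeR's test (1 by DESeq2 and 1 by limma), and 0 were higher by any of these tools or at an unadjusted p under 0.05. Slc16a3 encodes MCT4, the main lactate exporter of glycolytic cells. It had 151, 156 and 167 CPM in untreated replicates 1, 2 and 3 and 111, 113 and 139 CPM in the IFN-gamma replicates. Every IFN-gamma library lay below every untreated one, with a log2 fold change of -0.39 ± 0.08 (adjusted p = 0.00023). Slc16a1, which encodes the related transporter MCT1, had 220, 236 and 230 CPM untreated and 196, 218 and 214 CPM after IFN-gamma. Its groups did not overlap either, but the change of -0.13 ± 0.06 did not pass (adjusted p = 0.18), although it did with upper-quartile factors (adjusted p = 0.0455) and total counts without the ribosomal RNA row (adjusted p = 0.0306), in a range of 0.0306 to 0.54 over the 13 alternatives.

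Of the glucose transporter genes, Slc2a3 was called and Slc2a1 was not, with the difference between them not tested beyond the ratio given further on. Slc2a3, which encodes the high-affinity GLUT3, had 28.5, 19.8 and 27.8 CPM untreated and 17.1, 20.2 and 19.2 CPM after IFN-gamma, groups that overlapped through untreated replicate 2. Its change was -0.44 ± 0.15 (adjusted p = 0.036). This call did not hold once untreated replicate 1 (adjusted p = 0.183) or 3 (0.169) or IFN-gamma replicate 1 (0.164) or 3 (0.0523) was left out, nor with DESeq2 (0.0976) or limma on the deposited log2 values (0.0589), in a range of 0.0075 to 0.183 over the 13 alternatives. Slc2a1, which encodes the widely expressed GLUT1, had 278, 236 and 275 CPM untreated and 286, 238 and 227 CPM after IFN-gamma, with a change of -0.07 ± 0.08 (adjusted p = 0.61).

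In upper glycolysis 6 of 10 tested genes were called lower and 1 higher, with a median of -0.24. Gpi1, glucose-6-phosphate isomerase, had the smallest adjusted p, with 458, 506 and 506 CPM untreated and 370, 377 and 389 CPM after IFN-gamma. The groups stood clearly apart, and the change was -0.37 ± 0.06 (adjusted p = 3.7e-06). Tpi1, triose-phosphate isomerase, had 383, 364 and 400 CPM untreated and 316, 310 and 314 CPM after IFN-gamma, a change of -0.29 ± 0.06 (adjusted p = 0.00028). The IFN-gamma libraries lay close together below all untreated ones. Aldoa, the main aldolase and the gene with the most counts in upper glycolysis, a number that gene length also sets, went from 1527 ± 32.5 to 1311 ± 8.05 CPM (-0.22 ± 0.05, adjusted p = 0.0011). Reads of Aldoa may be shared with its retrocopy Aldoart1, which went from 13.5 ± 0.487 to 9.33 ± 1.66 CPM and was also called lower. Aldoc, the brain-type aldolase, had between 2 and 10 counts per library and was not tested.

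Of the hexokinase genes, Hk2 was called and Hk1 was not. Hk2, the inducible hexokinase typical of tumour cells, was the member of upper glycolysis called higher, with 229, 237 and 229 CPM untreated and 286, 274 and 270 CPM after IFN-gamma. All IFN-gamma libraries lay above all untreated ones, and the change was 0.26 ± 0.06 (adjusted p = 0.0017). Hk1, the constitutive hexokinase, had 109, 119 and 128 CPM untreated and 108, 103 and 111 CPM after IFN-gamma, with a change of -0.15 ± 0.08 (adjusted p = 0.21). The count ratio of Hk2 to Hk1 within a library, which no scaling between libraries affects, was 2.09, 1.997 and 1.78 untreated and 2.64, 2.66 and 2.43 after IFN-gamma. The ratio was higher in each of the 3 treated libraries, by 0.40 on the log2 scale (exact two-sided permutation p = 0.1, the smallest that 3 against 3 can give; 0.24 adjusted over the 12 pairs compared). Ratios of counts do not say which gene has more transcripts, since length and library kit also set them.

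All 3 phosphofructokinase genes, which encode subunits of the main regulated enzyme of glycolysis, were called lower. The muscle-type Pfkm had 26.0, 31.8 and 28.8 CPM untreated and 19.2, 18.1 and 23.0 CPM after IFN-gamma, a change of -0.52 ± 0.14 (adjusted p = 0.0062). The liver-type Pfkl changed by -0.25 ± 0.07 from 224 ± 6.57 to 188 ± 20.4 CPM (adjusted p = 0.0069), with IFN-gamma replicate 3 at 212 CPM nearest to the untreated libraries. The platelet-type Pfkp changed by -0.26 ± 0.08 from 110 ± 7.1 to 91.7 ± 6.94 CPM (adjusted p = 0.017). The groups of all 3 genes were separate, but not every call was stable. For Pfkl, leaving out IFN-gamma replicate 1 ended it (adjusted p = 0.0647, range 6.4e-05 to 0.0647 over the 13 alternatives). For Pfkp, the call ended without any 1 of untreated replicates 2 (0.057) and 3 (0.128) and treated replicate 2 (adjusted p = 0.121, range 0.0029 to 0.128). The ratio of Pfkm to Pfkl was 0.119, 0.144 and 0.124 untreated and 0.108, 0.104 and 0.109 after IFN-gamma (exact permutation p = 0.1, 0.24 adjusted), and that of Pfkp to Pfkl overlapped between the groups.

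The bifunctional enzymes Pfkfb3 and Pfkfb4 set the level of fructose 2,6-bisphosphate, the strongest activator of phosphofructokinase. Pfkfb3 had -0.17 ± 0.16 (adjusted p = 0.55), with 16.1, 17.0 and 17.0 CPM untreated and 15.5, 12.9 and 16.1 CPM after IFN-gamma. Pfkfb4 was scarce, with 3.53, 2.72 and 2.30 CPM untreated and 4.28, 3.24 and 4.39 CPM after IFN-gamma, and had 0.48 ± 0.36 (adjusted p = 0.42). Neither passed, and the groups of each gene overlapped. Their ratio, Pfkfb4 to Pfkfb3, was 0.223, 0.163 and 0.138 untreated and 0.279, 0.253 and 0.275 after IFN-gamma, groups that did not overlap (exact permutation p = 0.1, 0.24 adjusted), on as few as 20 counts of Pfkfb4 in a library.

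**Figure D2:**
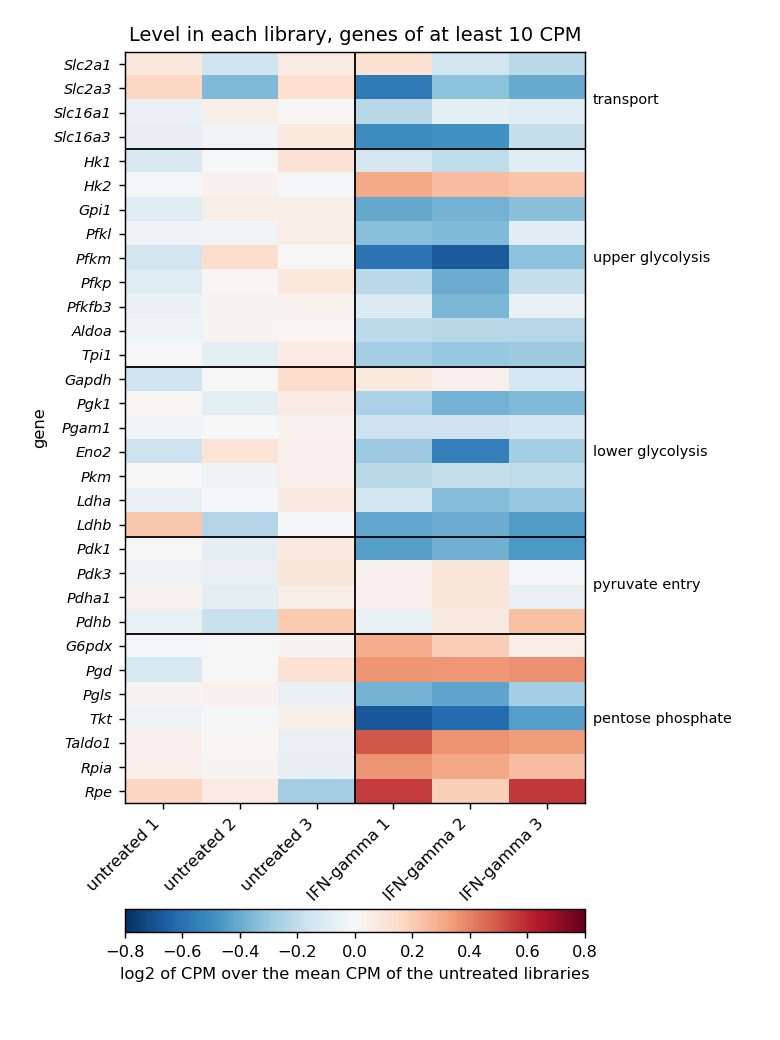
Level of each tested member of at least 10 CPM (rows, ordered by step) in each of the 6 libraries (columns), as log2 of its CPM over the mean CPM of the untreated libraries. The IFN-gamma columns are mostly blue (lower) in glycolysis and red (higher) for Hk2, Pgd, Taldo1, Rpe and, not past the threshold, Rpia and G6pdx.

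In lower glycolysis 5 of 7 tested genes were called lower in edgeR's test (4 by DESeq2, 5 by limma) and 0 higher by any of these tools or without adjustment, with a median of -0.26. Pgk1, phosphoglycerate kinase of the first ATP-yielding step, had 699, 658 and 726 CPM untreated and 580, 534 and 544 CPM after IFN-gamma. The groups were well separated, and the change was -0.33 ± 0.06 (adjusted p = 1.9e-05). Ldha, the lactate dehydrogenase subunit that favours lactate production, had 1063, 1089 and 1158 CPM untreated and 995, 869 and 896 CPM after IFN-gamma, a change of -0.26 ± 0.06 (adjusted p = 0.00049). IFN-gamma replicate 1 lay nearest to the untreated libraries. Pkm, pyruvate kinase of the last glycolytic step and the member with the most counts, had 1925, 1883 and 1989 CPM untreated and 1663, 1694 and 1678 CPM after IFN-gamma (-0.20 ± 0.05, adjusted p = 0.0023). Counts per gene do not separate its splice forms.

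Pgam1, phosphoglycerate mutase, had 534, 543 and 553 CPM untreated and 484, 484 and 489 CPM after IFN-gamma, a small change of -0.16 ± 0.05 (adjusted p = 0.033). Its groups did not overlap, but the gene missed the threshold when untreated replicate 1 (adjusted p = 0.0764), 2 (0.11) or 3 (0.154) or IFN-gamma replicate 1 (0.0946) or 2 (0.059) was left out and when low counts were not filtered (0.0548), in a range of 0.0023 to 0.154 over the 13 alternatives. Ldhb, the other lactate dehydrogenase subunit, had 34.7, 25.4 and 29.7 CPM untreated and 22.4, 22.8 and 21.9 CPM after IFN-gamma, a change of -0.42 ± 0.14 (adjusted p = 0.024). It missed the threshold when untreated replicate 1 (adjusted p = 0.203) or 3 (0.0591) or IFN-gamma replicate 1 (0.0694) or 3 (0.051) was left out, and with DESeq2 (0.0602), in a range of 0.0088 to 0.203. Eno2, the neuronal-type enolase, had 25.9, 31.2 and 29.9 CPM untreated and 23.7, 19.9 and 24.1 CPM after IFN-gamma, and did not pass (-0.36 ± 0.14, adjusted p = 0.061). It passed with upper-quartile factors (0.0277), total counts (0.0338), total counts without the ribosomal RNA row (0.0244) and without untreated replicate 1 (adjusted p = 0.0461), in a range of 0.0244 to 0.236.

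Gapdh and Eno1 have near-identical copies elsewhere in the genome, and the part of these copies in the values of their rows was not tested. Eno1, the main enolase of most cells, had 4, 0 and 0 counts untreated and 0, 0 and 2 after IFN-gamma, and was not tested. Its near-identical copy Eno1b stood on 2 rows with similar counts, one with 328, 346 and 355 CPM untreated and 286, 266 and 294 CPM after IFN-gamma, and the other with 340, 345 and 359 against 293, 283 and 302 CPM. These rows were called lower, by log2 changes of -0.28 ± 0.06 and -0.25 ± 0.06 (adjusted p = 0.00057 and 0.0019), and which gene their reads came from cannot be told apart here. Gapdh, the dehydrogenase that is also a common reference gene, has many processed pseudogenes, so its row may have lost reads. It had 118, 131 and 145 CPM untreated and 139, 135 and 119 CPM after IFN-gamma, with a change of -0.00 ± 0.08 (adjusted p = 0.98).

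At the entry of pyruvate into oxidation, 1 of 5 tested genes was called lower by edgeR, DESeq2 and limma alike, and 0 higher by any of them or without adjustment, with a median of 0.03. Pdk1, a kinase that inactivates pyruvate dehydrogenase, had 155, 146 and 162 CPM untreated and 114, 118 and 112 CPM after IFN-gamma. The groups did not overlap, and the change was -0.43 ± 0.07 (adjusted p = 1.3e-05). Pdk3, another kinase of the family, had 88.1, 87.2 and 97.0 CPM untreated and 92.7, 97.4 and 90.0 CPM after IFN-gamma (0.04 ± 0.08, adjusted p = 0.8), a sign that turned with upper-quartile factors and with total counts. The ratio of Pdk3 to Pdk1 was 0.569, 0.596 and 0.597 untreated and 0.813, 0.824 and 0.802 after IFN-gamma. It was higher in all 3 treated libraries by 0.47 on the log2 scale (exact permutation p = 0.1, 0.24 adjusted).

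The member genes of the E1 part of the dehydrogenase did not pass. Pdha1, on the X chromosome, encodes the catalytic alpha subunit and had 0.03 ± 0.08 (92.2 ± 4.16 and 93.9 ± 5.05 CPM, adjusted p = 0.88), a sign that turned with upper-quartile factors and with total counts. Pdhb, the beta subunit gene, had 0.08 ± 0.10 (59.3 ± 8.3 and 63.0 ± 6.67 CPM, adjusted p = 0.66). The groups of each overlapped. Pdk2 was scarce, with 7 to 26 counts per library, and had -0.72 ± 0.52 (adjusted p = 0.38), a value that ranged from -1.41 to -0.37 with 1 library left out. Pdk4, a kinase known for its rise in fasting, had 0 to 12 counts per library and was not tested.

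The pentose phosphate genes moved in both directions: 3 of 7 were called higher and 2 lower, with a median of 0.30, and the groups did not overlap in any of the 7. Over all tested genes 9.88% were called higher and 7.56% lower, and the groups did not overlap in 31.8%. In the oxidative arm, Pgd, the second NADPH-yielding dehydrogenase, had 76.8, 84.4 and 91.0 CPM untreated and 107, 107 and 108 CPM after IFN-gamma. The change was 0.35 ± 0.08 (adjusted p = 0.0012), and the treated libraries lay close together (107 ± 0.766 CPM). G6pdx, the rate-limiting first dehydrogenase, had 41.0, 41.4 and 42.0 CPM untreated and 50.7, 47.7 and 43.0 CPM after IFN-gamma, and did not pass (0.19 ± 0.11, adjusted p = 0.25). Pgls, the lactonase between these dehydrogenases, moved the other way, with 185, 187 and 174 CPM untreated and 140, 136 and 150 CPM after IFN-gamma (-0.36 ± 0.07, adjusted p = 0.00013).

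In the non-oxidative arm the transketolase and transaldolase genes went in opposite directions. Tkt, transketolase, had 165, 169 and 175 CPM untreated and 106, 111 and 125 CPM after IFN-gamma. It had the smallest adjusted p of all members, with a change of -0.58 ± 0.07 (adjusted p = 4.7e-08) and well separated groups. Taldo1, transaldolase, had 111, 108 and 104 CPM untreated and 152, 138 and 136 CPM after IFN-gamma, a change of 0.40 ± 0.07 (adjusted p = 7.2e-05). Rpe, ribulose-phosphate epimerase, had 32.5, 30.3 and 23.8 CPM untreated and 42.6, 32.9 and 42.7 CPM after IFN-gamma (0.45 ± 0.13, adjusted p = 0.011). IFN-gamma replicate 2 lay just above the highest untreated library. Leaving out untreated replicate 3 (adjusted p = 0.116) ended, as did leaving out IFN-gamma replicate 1 (0.0729), the Rpe call, in a range of 0.0013 to 0.116 over the 13 alternatives. Rpia, the isomerase that yields ribose 5-phosphate, had 20.8, 20.5 and 19.3 CPM untreated and 25.8, 25.0 and 23.9 CPM after IFN-gamma, and did not pass (0.30 ± 0.14, adjusted p = 0.14).

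**Figure D3:**
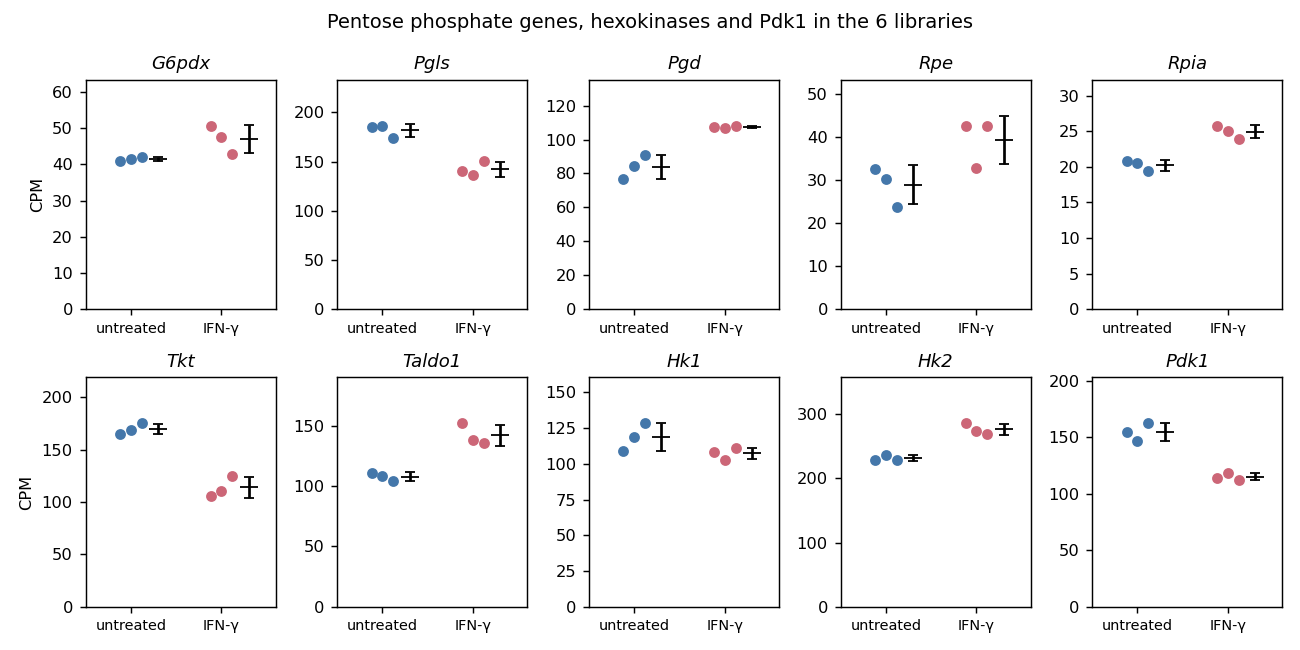
CPM (y axes, from 0) of the pentose phosphate genes, Hk1, Hk2 and Pdk1 in the 3 untreated (blue) and 3 IFN-gamma (red) libraries, with mean ± SD in black. Tkt, Pgls and Pdk1 lie lower and Pgd, Rpe, Taldo1 and Hk2 higher in every treated library; G6pdx, Rpia and Hk1 did not pass the threshold.

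Among the pairs not yet described, the ratio of Slc16a3 to Slc16a1 was 0.687, 0.660 and 0.727 untreated and 0.567, 0.520 and 0.648 after IFN-gamma, groups that did not overlap (exact permutation p = 0.1, 0.24 adjusted). The ratios of Slc2a3 to Slc2a1 and of Ldhb to Ldha overlapped between the groups (exact permutation p = 0.3 and 0.5, 0.6 and 0.75 adjusted). Those with Aldoc, Eno1, Pdk2 or Pdk4 rest on rows with few counts and also overlapped. In all, 5 of the 12 pairs had separate groups, and none could reach 0.05 with 3 libraries a group.

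**Figure D4:**
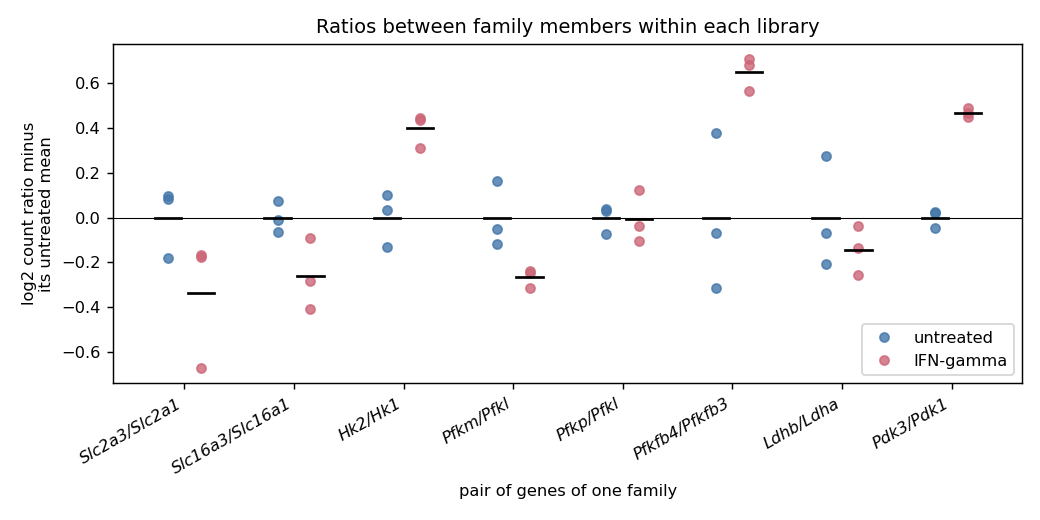
Log2 count ratio of pairs of family members within each library, minus its mean in the untreated libraries (y axis), for 8 pairs (x axis); points are libraries and black lines group means. The ratios Hk2/Hk1, Pfkfb4/Pfkfb3 and Pdk3/Pdk1 are higher, and Slc16a3/Slc16a1 and Pfkm/Pfkl lower, in all 3 treated libraries.

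Other genes of the pathway were taken from a list of related transporters, enzymes and partners, of which 65 were in the table and 35 were tested. Of these, 3 were called lower and 2 higher, with a median of -0.04, and beside the 7.56% and 9.88% of all tested genes these counts do not set the list apart. Bsg, basigin, the partner that brings MCT1 and MCT4 to the membrane, was lower, with a log2 change of -0.41 ± 0.06 from 380 ± 28.3 to 286 ± 9.07 CPM (adjusted p = 1.6e-06), 1 of 5 tested transport partners and relatives. Of 13 tested related glycolytic and sugar phosphate genes, Pgm2l1, a glucose 1,6-bisphosphate synthase, was lower, with a log2 change of -0.66 ± 0.10 (adjusted p = 2.7e-06). The phosphoglucomutase gene Pgm2 was lower, with a log2 change of -0.20 ± 0.07 (adjusted p = 0.042), and missed the threshold when untreated replicate 1 (adjusted p = 0.0841) or 3 (0.244) or IFN-gamma replicate 1 (0.0781), 2 (0.0924) or 3 (0.0591) was left out, with no filter (0.0575), DESeq2 (0.0594) and limma (0.0565), in a range of 0.0061 to 0.244. Of 9 tested genes of pyruvate import and dehydrogenase, 2 were higher. These were Pdp1, the phosphatase that reactivates the dehydrogenase (0.34 ± 0.10, adjusted p = 0.017), and Dld, its E3 subunit (0.32 ± 0.11, adjusted p = 0.038). Pdp1 missed the threshold when either replicate 2, untreated (adjusted p = 0.102) or treated (0.159), was left out and with total counts without the ribosomal RNA row (0.0521), in a range of 0.0085 to 0.159. Dld missed it when untreated replicate 2 (adjusted p = 0.135) or 3 (0.152) or IFN-gamma replicate 1 (0.217) or 3 (0.074) was left out and with DESeq2 (0.0816), upper-quartile factors (0.0867), total counts (0.0755) and total counts without the ribosomal RNA row (0.0985), in a range of 0.011 to 0.217. Of 6 other pentose phosphate genes and 2 gluconeogenesis genes tested, 0 were called by edgeR, DESeq2 or limma, and 1 (Tigar) had an unadjusted p under 0.05 in edgeR's test.

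Of 13 tested regulators of these pathways, 2 were lower and 2 higher, counts too small to read against the 7.56% and 9.88% of all tested genes. The oxygen-sensing prolyl hydroxylase genes Egln1 and Egln3 were lower: Egln1 with a log2 change of -0.59 ± 0.06 from 334 ± 4.96 to 221 ± 15.9 CPM (adjusted p = 4.8e-10), and Egln3 with one of -0.90 ± 0.21 from 12.6 ± 1.33 to 6.74 ± 0.319 CPM (adjusted p = 0.0015). Hif1a, which encodes the HIF-1 alpha subunit that oxygen controls mainly at the protein level, had -0.14 ± 0.07 (adjusted p = 0.21), and the growth regulator Myc 0.03 ± 0.13 (adjusted p = 0.93). Arrdc4, an arrestin-like gene that the sugar-sensing MLX factors induce and that restrains glucose uptake, was higher by 1.11 ± 0.19 from 13.2 ± 4.4 to 28.9 ± 5.5 CPM (adjusted p = 9e-05). Its relative Txnip had 0.26 ± 0.11 and did not pass (adjusted p = 0.11). Mlxip, which encodes such a factor (MondoA), was higher by 0.47 ± 0.14 (adjusted p = 0.013), but not when untreated replicate 1 was left out (adjusted p = 0.108, range 0.0076 to 0.108 over the 13 alternatives).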

How the data were processed

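RNA-seq of 6 samples (3 untreated, 3 with IFN-gamma) was used. The authors deposited 1 table with unnormalized whole-number counts for each gene and their own log2 normalized expression. The submitters' processing notes name Bowtie2 and edgeR with no version. They name hg19, which is human, although the samples are mouse, so no coordinates of counted genes are given. Per the labels' protocols, a poly(A) stranded kit and a 3' mRNA kit were both named, and which of them gave these counts is not given in the sources used here. Levels are therefore compared within a gene.

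The count test was edgeR's quasi-likelihood fit (version 4.0.16, R 4.3.3) with TMM scaling, its default filter on low counts, robust dispersion, no covariate, and Benjamini-Hochberg adjustment over 12191 genes at 0.05. The biological coefficient of variation was 0.0871. The ribosomal row Rn45s took 5.81% to 9.69% of each library's counts. No library duplicated another: every pair differed beyond sampling noise. Ratios of family members used counts plus 0.5 and an exact permutation test over 20 splits. Alternatives were 3 other scalings, no filter, DESeq2 1.42.0, limma 3.58.1 on the deposited log2 values, a replicate block and leaving out each library. Promoter windows came from RefSeq (GRCm38.p6). The fit was tested on simulated data.

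Members, lists and pairs were chosen with earlier results of these data known. Any member could be named. Full statistics were set for the 2 smallest adjusted p-values, the highest CPM and members against the majority in each step, and for the 2 smallest adjusted p-values past the threshold in each other list. Statistics of further members, and Hif1a, Myc, Txnip, Tigar, Mlxip, Egln3, Aldoart1, Eno1b and the 4 printed promoters, were added after their values were seen. Some results of the lists are not reported here.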

Additional observations from a re-analysis of the deposited data

How the results depend on the processing

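Of the 20 member calls, 14 (11 lower, 3 higher) stayed past the threshold in the same direction under all 13 alternatives. The other 6 (Slc2a3, Pfkl, Pfkp, Pgam1, Ldhb and Rpe) kept their direction and lost the call under at least 1. Leaving out 1 library gave between 12 and 14 lower and between 3 and 4 higher members. The number of transport members lower was 1 with DESeq2, 1 with limma and between 1 and 2 with a library left out, and of lower glycolysis members lower between 3 and 4 with a library left out. Over all genes 1436 were lower with total counts without the ribosomal RNA row, against 922. Members near 0 changed sign without being called, with the cause not tested. Gapdh had 0.0015 with no filter, 0.0029 with limma and between -0.0778 and 0.0795 with a library left out. Pdk3 had -0.010 with upper-quartile factors, -0.0037 with total counts and -0.020 with total counts without Rn45s. Pdha1 had -0.025, -0.018 and -0.034 under these, and between -0.0087 and 0.067 with a library left out. The log2 ratio difference of Eno2 to Eno1 was 0.02, against -0.12 on the deposited log2 values and between -1.06 and 0.82 with a library left out. That of Pfkp to Pfkl ranged from -0.072 to 0.042, of Pdk2 to Pdk1 from -0.83 to 0.033 and of Pdk4 to Pdk1 from -1.55 to 0.53. Whether equal replicate numbers pair the samples cannot be settled with 3 libraries a group. Correlations of same-numbered deviations were 0.0028, 0.0411 and -0.0014, and those of unlike numbers ran from -0.0278 to 0.0276. Not every library correlated best with its own number. With the replicate block 16 members were lower and 4 higher. Depth limits Aldoc, Eno1, Pdk4, Pdk2 and Pfkfb4.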
